A study of Mus musculus with 4 samples.

Results

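Immediate early transcription factors are genes that a cell switches on within minutes of a stimulus, before any new protein has been made. The 10 described here are Fos, Fosb, Jun and Junb, whose proteins pair to form the AP-1 factor, Egr1 and Egr2, zinc finger factors, Nr4a1, Nr4a2 and Nr4a3, orphan nuclear receptors, and Ier2, a nuclear regulator of early response transcription. They were chosen by name, and each had 1 row among the 32285 genes of both expression matrices. They were followed in single cells sorted from tumours of MC38, a colon carcinoma line of mouse origin, in female C57BL/6 recipients of 12 to 16 weeks of age. The knockout recipients were Prdm1 f/f CD19cre mice, in which a cre active in the B lineage deletes Prdm1, the gene of the plasma cell regulator Blimp-1, and the control recipients were Prdm1 f/f mice, so that both groups carry the floxed alleles. On day 18 after inoculation the tumours of 11 mice of each genotype were pooled, and sorted B220+ and CD138+ cells were mixed in proportions that the labels do not give.

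Each genotype was 1 expression library of pooled recipients. No difference can therefore be checked against replicates or tested, and every interval is a 95% interval that covers counting error only. Knockout and control files have date stamps that differ. What the stamps mark is not given in the sources used here, and any difference in when or how the libraries were made cannot be told apart from the genotype. The knockout library held 897 barcodes and 5463434 UMIs and the control library 816 barcodes and 6976374 UMIs, where a UMI counts 1 captured RNA molecule. After filtering, 863 knockout cells had a median of 4022 UMIs and 804 control cells a median of 5946.5 UMIs, and the libraries shared 3 barcodes. The cells were grouped by clustering on other genes than these 10 and named from marker lists. B cell-like cells, with all 13 B cell markers detected in both libraries, made up 275 knockout and 228 control cells, and plasma cell-like cells 0 knockout and 47 control cells. Prdm1, the targeted gene, had 15 UMIs in knockout and 1 UMI in control B cell-like cells, 43 UMIs in the control plasma cell-like cells, and 38 knockout and 42 control UMIs in all other cells. The libraries read the 5′ ends of transcripts, and the labels do not say which exons are floxed, so these counts do not check the deletion. The other cells carried markers of NK cells, T cells, gamma delta T17 cells, macrophages or monocytes, plasmacytoid dendritic cells, mast cells or basophils, and cycling cells, although the sort was for B220+ and CD138+ cells, and 4 clusters stayed unnamed.

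In B cells these genes answer the antigen receptor, CD40, cytokines and mechanical or enzymatic stress, through MAP kinases, calcium and the transcription factors SRF, Elk and CREB, which already sit on their promoters. Nr4a1 is widely used as a reporter of antigen receptor signalling in lymphocytes. Because the transcripts are short-lived and can be made while tissue is being dissociated, their level in sorted tumour cells reads the recent past of a cell and its handling.

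RefSeq promoter windows on GRCm38.p6 were found for 8 of the 10 genes, all but Egr1 and Ier2. The 250 bases before the annotated start were searched on both strands. The Nr4a1 window printed below lies inside the listed gene, 101253902 to 101274795 on chromosome 15, and so precedes an internal start. The windows printed for Fos, Junb and Jun border their listed genes. The core of the CREB site, TGACG, was in the windows of 7 of these 8 genes (Fos, Fosb, Junb, Egr2, Nr4a1, Nr4a2 and Nr4a3) but not in that of Jun, and in 19.8% of the 27025 genes with a window. The full palindrome TGACGTCA, which contains that core, was in 0 of 8, against 1.77% of all genes, and the AP-1 site TGANTCA also in 0 of 8, against 7.82%. The Egr site GCGNGGGCG was in the windows of Fosb, Nr4a1 and Nr4a2, against 5.33% of all genes, and the CArG box of SRF in that of Egr2, against 1.62%. A match is a description of the letters and not of a bound site. Sites outside the 250 bases were not searched, so no match does not mean that a gene lacks the site. With the TGACG core or its reverse complement CGTCA in capitals, the windows of Fos (chr12:85473640-85473889, plus strand), Junb (chr8:84978749-84978998, minus strand) and Nr4a1 (chr15:101266596-101266845, plus strand), the 3 genes past the 1.5-fold mark in B cell-like cells, and of Jun (chr4:95052223-95052472, minus strand), which was not, read as follows.
Fos: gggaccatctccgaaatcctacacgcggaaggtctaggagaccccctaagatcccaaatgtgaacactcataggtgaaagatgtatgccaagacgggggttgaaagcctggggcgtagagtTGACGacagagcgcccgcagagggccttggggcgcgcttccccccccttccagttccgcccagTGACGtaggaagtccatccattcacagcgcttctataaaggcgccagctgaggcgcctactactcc
Junb: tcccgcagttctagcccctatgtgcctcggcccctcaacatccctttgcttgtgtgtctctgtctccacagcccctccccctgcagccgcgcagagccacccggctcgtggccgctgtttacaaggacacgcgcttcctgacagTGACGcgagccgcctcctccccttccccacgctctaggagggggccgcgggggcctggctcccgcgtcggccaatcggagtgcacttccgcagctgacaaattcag
Nr4a1: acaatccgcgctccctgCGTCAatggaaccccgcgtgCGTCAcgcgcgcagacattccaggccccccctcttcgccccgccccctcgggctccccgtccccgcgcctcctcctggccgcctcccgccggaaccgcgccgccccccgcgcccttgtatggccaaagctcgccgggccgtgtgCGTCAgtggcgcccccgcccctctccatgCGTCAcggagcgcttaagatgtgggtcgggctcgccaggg
Jun: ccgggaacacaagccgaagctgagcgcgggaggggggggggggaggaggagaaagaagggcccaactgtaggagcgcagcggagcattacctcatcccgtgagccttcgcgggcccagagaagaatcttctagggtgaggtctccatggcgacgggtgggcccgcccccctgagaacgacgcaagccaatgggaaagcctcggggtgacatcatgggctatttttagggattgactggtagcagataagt

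The mast cell- or basophil-like cells stood far above every other class in both libraries. Summed over the 10 genes they held 21892 CPM (UMIs per 1000000 UMIs of the class) in the knockout library (21097 to 22708) and 23235 CPM in the control library (22350 to 24145). They gave 33.8% of the knockout and 21.6% of the control library's UMIs of these genes from 2.45% and 1.61% of all UMIs, with only 45 knockout and 34 control cells. Junb stood there at 8173 CPM in the knockout and 8603 CPM in the control library, Egr1 at 3277 and 3323 CPM, Ier2 at 3384 and 3627 CPM, and Jun at 4064 and 3144 CPM. Below them came an unnamed cluster led by Ace and Ear2, at 2925 CPM in the knockout library (2565 to 3320) and 3064 CPM in the control library (2793 to 3355).

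The place of the B cell-like cells in this order differed between the libraries. In the knockout library they were the seventh of 12 classes, at 1343 CPM (1270.3 to 1420), and their interval overlapped those of the plasmacytoid dendritic-like cells above, at 1428 CPM, and of the T cell-like cells below, at 1206 CPM. In the control library they were the third of 13, at 2235 CPM (2138 to 2337), overlapping the next class, an unnamed cluster led by Mt1 and Inhba at 2062 CPM. Gamma delta T17-like cells held 2147 CPM in the knockout and 1859 CPM in the control library, macrophage- or monocyte-like cells 1960.4 and 1827 CPM, NK cell-like cells 865 and 1224 CPM, and cycling cells 513 and 610.0 CPM. The control plasma cell-like cells held 1094 CPM (1030.2 to 1161).

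Classes also differed in which of the genes they held. Junb had the most UMIs of the 10 in every named class with cells in both libraries except the plasmacytoid dendritic-like cells, where Jun did. For each 100 Junb UMIs these cells had 446 Jun UMIs in the knockout and 179 in the control library, while B cell-like cells had 43.1 and 29.5. NK cell-like cells had 10.2 Fos UMIs in the knockout and 10.1 in the control library for each 100 Junb UMIs, against 36.9 and 42.0 in B cell-like cells. The control plasma cell-like cells had 253 Fos UMIs for each 100 Junb UMIs, but 146 of their 534 Fos UMIs lay in 1 cell.

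The nuclear receptors followed another pattern than AP-1. Nr4a1 was highest in the Ace and Ear2 cluster, at 636 CPM in the knockout and 707 CPM in the control library, where 100% of 14 knockout and 78.3% of 23 control cells had a UMI, while the other named classes lay at or below 122 CPM. Nr4a2 was highest in T cell-like cells, at 81.3 CPM in the knockout and 95.4 CPM in the control library, and had 0 UMIs in the mast cell- or basophil-like cells of both. Nr4a3 never passed 30.2 CPM in any class. Egr2, which early response signals induce in T cells, lay at 39.0 knockout and 33.7 control CPM in T cell-like cells. It was highest in mast cell- or basophil-like cells, at 68.7 CPM from 9 knockout UMIs and 98.3 CPM from 11 control UMIs. The intervals of these classes overlapped in both libraries. Egr2 had 2 knockout and 5 control UMIs in all B cell-like cells, all 5 in 1 cell.

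**Figure D1:**
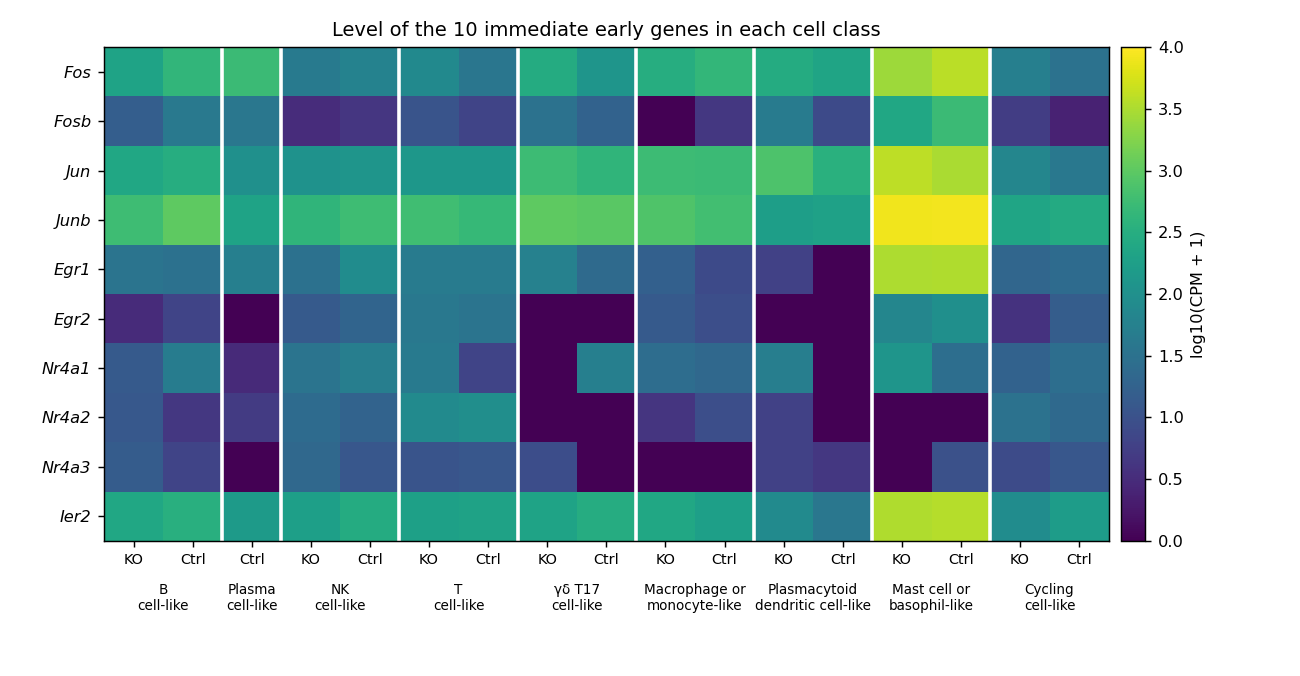
Level of each gene, as log10 of CPM plus 1, in each named class, with the knockout library (KO) left of the control library (Ctrl); plasma cell-like cells were found in the control library only. The mast cell- or basophil-like columns are brightest for Fos, Fosb, Jun, Junb, Egr1, Egr2 and Ier2, and are at 0 for Nr4a2. Junb stands there at 8173 CPM in the knockout and 8603 CPM in the control library.

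Over all B cell-like cells the AP-1 genes Fos and Junb and the receptor gene Nr4a1 were lower in the knockout library, and of the 6 members with at least 50 UMIs there none was higher by 1.5-fold. Fos (ENSMUSG00000021250, chromosome 12, positions 85473890 to 85477274, GRCm38.p6) had 209 CPM from 196 UMIs in the knockout and 434 CPM from 380 UMIs in the control library, a ratio of 0.481 (0.403 to 0.573). It was found in 30.2% of knockout and 53.9% of control B cell-like cells. Junb had 565 CPM in the knockout and 1032 CPM in the control library, a ratio of 0.548 (0.491 to 0.610), and 62.9% and 83.8% of the cells had a UMI. Nr4a1 had 12.8 CPM from 12 UMIs in the knockout and 46.8 CPM from 41 UMIs in the control library, a ratio of 0.273 (0.131 to 0.529). All 3 intervals lie below 1. The top cell held 8 Fos UMIs in the knockout and 18 in the control library, and 8 of the 41 control Nr4a1 UMIs were in 1 cell.

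The other members that could be counted were within 1.5-fold. Ier2 had 237 CPM in the knockout and 333 CPM in the control library, a ratio of 0.712 (0.595 to 0.851), and Jun had 244 and 305 CPM, a ratio of 0.7997 (0.667 to 0.958). Egr1, whose protein is a general read-out of MAP kinase signalling, had 33.0 CPM from 31 UMIs in the knockout and 29.7 CPM from 26 UMIs in the control library, a ratio of 1.11 (0.639 to 1.95). The remaining genes had under 50 UMIs in these cells, the minimum set for a call. Fosb had 14 UMIs in the knockout and 35 in the control library, Nr4a2 had 11 and 3, and Nr4a3 had 13 and 5, with 9 of those 13 in 1 cell.

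Of 6 members with enough UMIs in B cell-like cells, 3 were lower by 1.5-fold and 0 higher, where 7.13% of all 4247 genes counted there were lower and 5.27% higher. Their median log2 ratio was -0.68, beside -0.06 for all genes. Summed over the 10 genes, the level was 1343 CPM in the knockout and 2235 CPM in the control library, a ratio of 0.601 (0.559 to 0.645). Median depth was 2712 UMIs in knockout and 3061.5 UMIs in control B cell-like cells, and the median mitochondrial share was 1.87% and 1.78%.

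The B cell-like cells lay in 2 clusters that differed in these transcripts. The leading gene of the first was Fcer2a, which encodes CD23, a receptor found on follicular B cells, and the second had Fcrl5, an Fc receptor-like gene, and Ms4a1 among its leading genes. Of B cell-like cells, 42.2% in the knockout and 80.7% in the control library were in the Fcer2a cluster, which had more of these transcripts in both libraries. In the Fcer2a cluster the summed level was 2020.2 CPM in the knockout and 2758 CPM in the control library, and in the Fcrl5 cluster 1043 and 1328 CPM. Within the Fcer2a cluster the knockout over control ratio was 0.732 (0.665 to 0.806), and within the Fcrl5 cluster 0.785 (0.695 to 0.889). With each cluster's level weighted by the control library's makeup, the ratio was 0.744 in place of 0.601.

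Fos and Junb lay below 1 in both clusters, while Ier2 and Jun lay on both sides of it. In the Fcer2a cluster Fos was at 342 CPM in the knockout and 572 CPM in the control library, a ratio of 0.599 (0.473 to 0.752), and in the Fcrl5 cluster at 149 and 194 CPM, a ratio of 0.770 with an interval that includes 1 (0.554 to 1.08). Junb had ratios of 0.683 (0.589 to 0.790) and 0.713 (0.591 to 0.861), with the Fcer2a cluster given first. Ier2 stood at 387 CPM in the knockout and 385 CPM in the control library in the Fcer2a cluster, a ratio of 1.01 (0.793 to 1.27), and had a ratio of 0.700 (0.520 to 0.948) in the Fcrl5 cluster. Jun had ratios of 0.865 (0.679 to 1.10) and, from 126 knockout and 38 control UMIs, 1.63 (1.13 to 2.41). Nr4a1 had under 50 UMIs in each cluster. In the Fcrl5 cluster it had 4 UMIs in 159 knockout and 19 in 44 control cells, a ratio of 0.104 (0.026 to 0.312). In the Fcer2a cluster it had 8 and 22 UMIs, a ratio of 0.699 with an interval that includes 1 (0.269 to 1.63). At the control makeup its ratio was 0.423. In the Fcer2a cluster 1 of 4 members counted was lower by 1.5-fold and 0 higher (6.19% and 4.28% of all genes), and in the Fcrl5 cluster 0 were lower and 1 higher (10.5% and 7.96%).

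**Figure D2:**
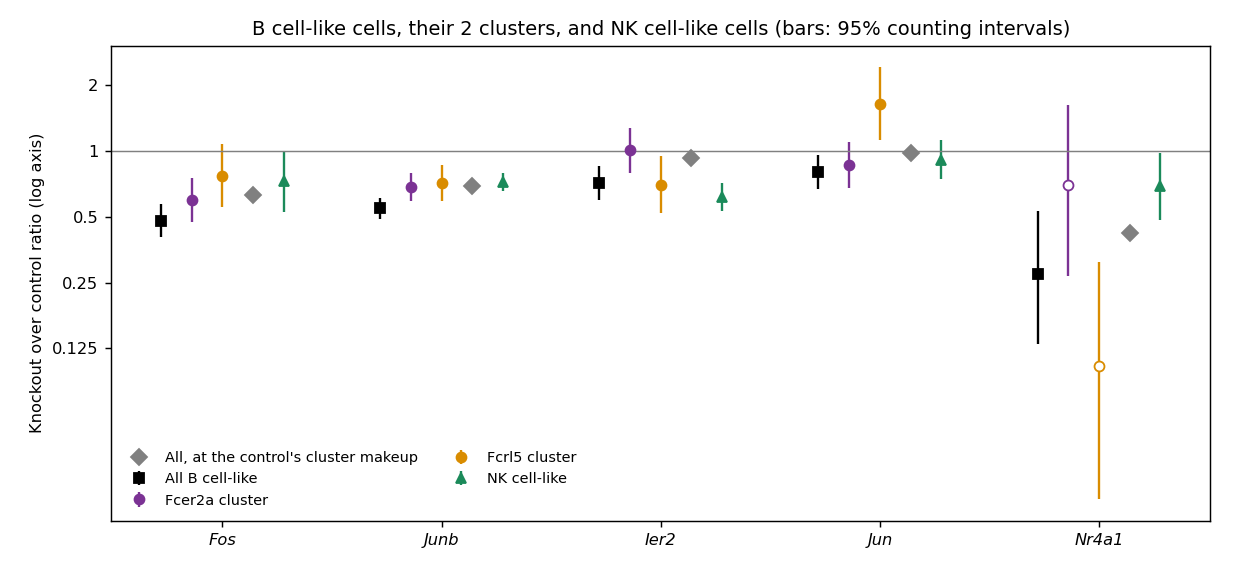
Knockout over control ratio (log axis, with 95% counting intervals) of 5 genes in all B cell-like cells, in their Fcer2a and Fcrl5 clusters, at the control library's cluster makeup (no interval) and in NK cell-like cells; open circles rest on under 50 UMIs. Fos moves from 0.481 over all B cell-like cells to 0.627 at equal makeup, and Jun from 0.7997 to 0.974.

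NK cell-like cells, which are not of the B lineage in which the cre is active, were also lower in the knockout library. Their summed level was 865 CPM in the knockout and 1224 CPM in the control library, a ratio of 0.707 (0.660 to 0.756), and their median log2 ratio over 9 members was -0.47, beside -0.004 for all genes. Egr1 was at 29.8 CPM from 55 UMIs in the knockout and 86.0 CPM from 130 UMIs in the control library, a ratio of 0.347 (0.248 to 0.479), and Ier2 had a ratio of 0.616 (0.532 to 0.711). Junb was at 0.722 (0.654 to 0.797), Fos at 0.726 (0.527 to 0.998), Nr4a1 at 0.689 (0.485 to 0.976) and Jun at 0.910 (0.741 to 1.12). Nr4a3 went the other way, with 39 UMIs in the knockout and 17 in the control library and a ratio of 1.88 (1.04 to 3.55). Thus 2 members were lower by 1.5-fold and 1 higher, where 2.93% and 2.78% of all genes were. All 3 clusters named NK had summed ratios below 1, at 0.797 (0.714 to 0.889) in the one led by Xcl1 and Gzmc, 0.737 (0.667 to 0.814) in the one led by Ccl5 and 0.515 (0.427 to 0.620) in the one led by Ifi44, and weighting them by the control makeup gave 0.720. Of 4 members counted in the Xcl1 cluster 2 were lower and 0 higher by 1.5-fold (3.74% and 3.91% of all genes), of 6 in the Ccl5 cluster 1 and 0 (3.53% and 4.56%), and of 3 in the Ifi44 cluster 2 and 0 (5.22% and 5.94%).

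The other classes lay nearer to 1 or above it. T cell-like cells had a summed level of 1206 CPM in the knockout and 1041 CPM in the control library, a ratio of 1.16 (1.001 to 1.34), which was 0.956 when the early genes took part in clustering. The ratio was 1.15 (0.979 to 1.36) in gamma delta T17-like cells (0.937 after thinning to 1000 UMIs per cell), 1.07 (0.976 to 1.18) in macrophage- or monocyte-like cells, 0.942 (0.893 to 0.994) in mast cell- or basophil-like cells and 0.841 (0.729 to 0.969) in cycling cells. Plasmacytoid dendritic-like cells were higher in the knockout library, at 1428 CPM against 803 CPM in the control library, a ratio of 1.78 (1.49 to 2.12). Jun had there 776 CPM in the knockout and 346 CPM in the control library. Over all cells outside the B cell-like and plasma cell-like classes the ratio was 0.924 (0.895 to 0.953), but their makeup differed between the libraries. They included the unnamed cluster led by Ifit3 and Pkib, whose best marker list was that of B cells, below the naming minimum. That cluster held 94 of 7214 knockout and 61 of 8982 control UMIs of the 10 genes. In all these outside cells 1 of 10 members was lower and 1 higher by 1.5-fold (7.87% and 5.34% of all genes). Over all cells 2 were lower and 1 higher (6.93% and 7.03%). The unnamed cluster led by Gzmg and Gzmd, in which all 11 NK markers were detected, had 709 CPM in the knockout and 602 CPM in the control library, a ratio of 1.18 (1.003 to 1.39). It had 0 of 3 past it in either direction (8.38% and 23.6%), with median depths of 3020.0 knockout and 19543 control UMIs.

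**Figure D3:**
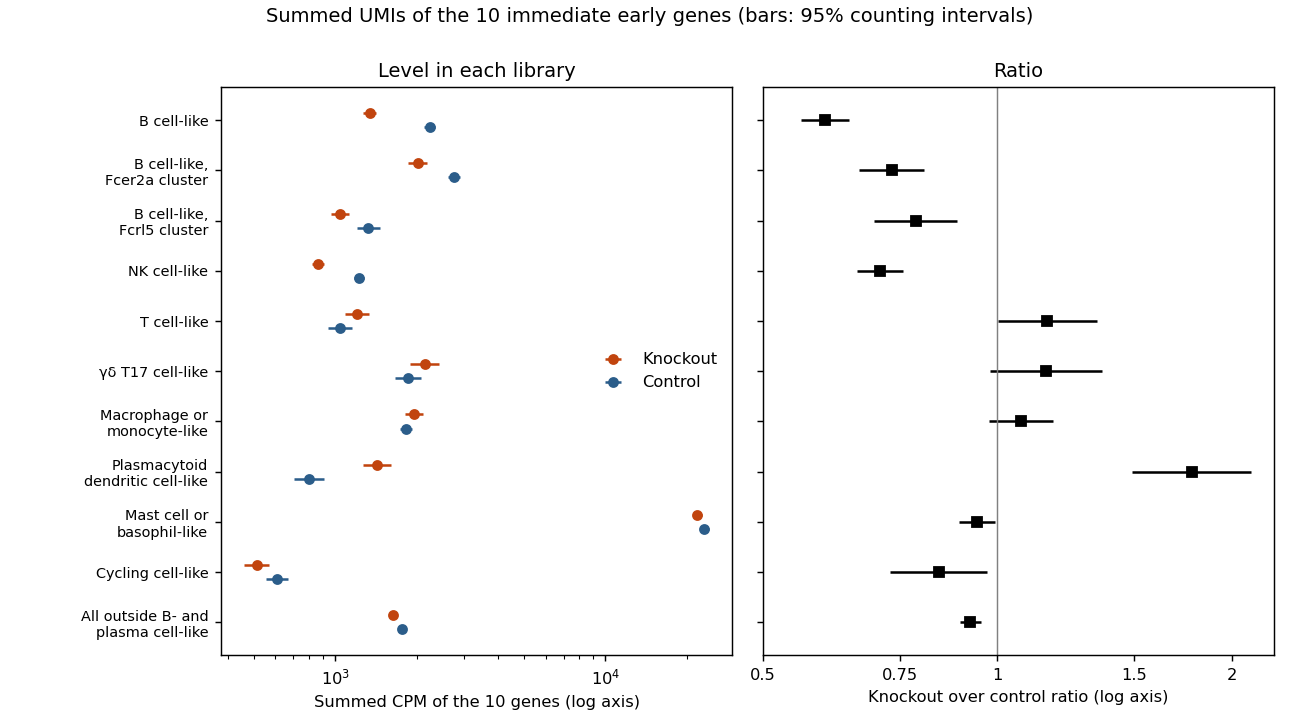
Summed CPM of the 10 genes in each library (left, log axis, knockout above control) and the knockout over control ratio (right, log axis) in each class, with 95% counting intervals. B cell-like cells, both of their clusters and NK cell-like cells lie left of 1, from 0.601 to 0.785. Cycling cells (0.841), mast cell- or basophil-like cells (0.942) and all cells outside the B cell-like and plasma cell-like classes (0.924) also lie left of 1. T cell-like cells lie at 1.16 and plasmacytoid dendritic-like cells at 1.78.

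Member by member the classes differed in direction. Fos was counted in 7 classes, below 1 in 4 and above 1 in 3. It was lower by 1.5-fold in B cell-like and mast cell- or basophil-like cells, where its ratio was 0.662 (0.572 to 0.765), and higher by 1.5-fold in gamma delta T17-like cells, at 2.35 (1.34 to 4.24) from 36 knockout and 21 control UMIs, and in cycling cells, at 1.69 (0.965 to 3.01). In gamma delta T17-like cells 14 of the 36 knockout Fos UMIs were in 1 cell. Jun was above 1 in 6 of 8 classes, with 2.24 (1.74 to 2.91) in plasmacytoid dendritic-like cells, 1.69 (1.03 to 2.81) in cycling cells and 1.29 (1.13 to 1.48) in mast cell- or basophil-like cells. Junb was below 1 in 5 of 8 classes and past 1.5-fold in 1, the B cell-like cells, though not within either of their clusters (0.683 and 0.713) or at the control makeup (0.689). Within the NK cell-like class it was past 1.5-fold in the Ifi44 cluster, at 0.543 (0.417 to 0.703). Ier2 was below 1 in 6 of 7, at 0.542 (0.391 to 0.745) in cycling cells. Fosb could be counted in mast cell- or basophil-like cells, at 244 CPM in the knockout and 536 CPM in the control library, a ratio of 0.456 (0.287 to 0.712).

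The share of members past 1.5-fold can be read against all genes of each class. In mast cell- or basophil-like cells 2 of 6 were lower and 0 higher (5.15% and 6.32% of all genes), in cycling cells 1 of 4 was lower and 2 higher (5.21% and 8.44%), and in T cell-like and macrophage- or monocyte-like cells 0 of 4 were past it in either direction (8.63% lower and 7.02% higher of all genes in T cell-like cells, 7.82% and 5.98% in macrophage- or monocyte-like cells). In gamma delta T17-like cells 0 of 4 were lower and 1 higher (6.28% and 5.41%), and in plasmacytoid dendritic-like cells 0 of 3 were lower and 1 higher (5.46% and 5.13%).

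**Figure D4:**
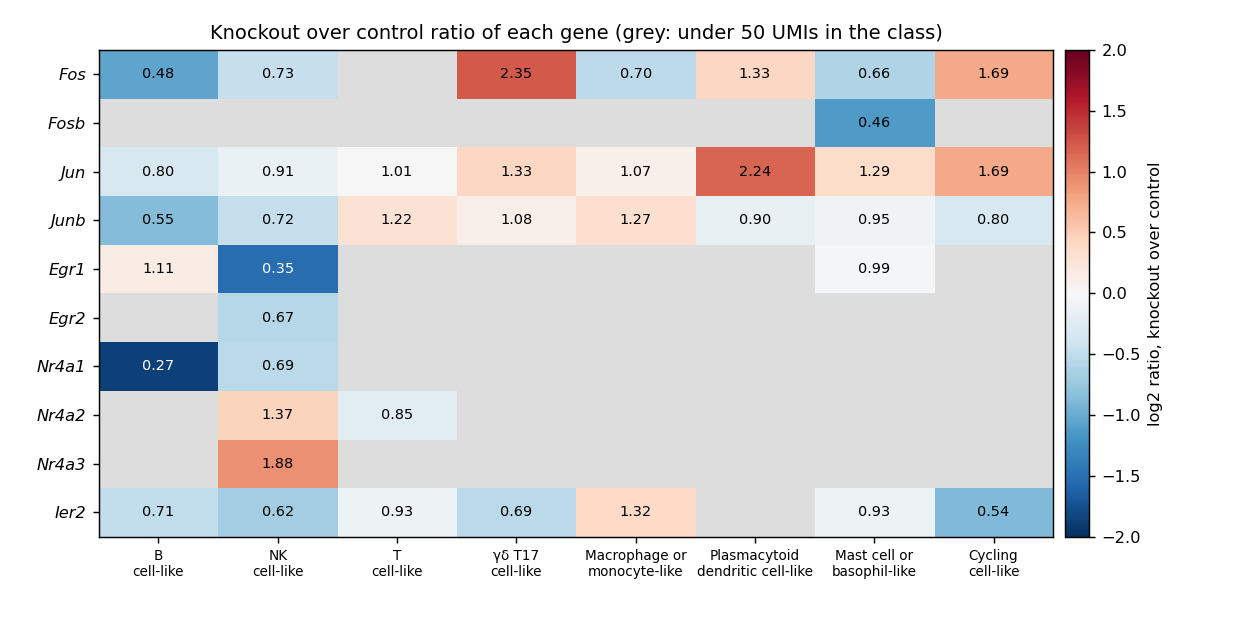
Knockout over control ratio of each gene in each class with cells in both libraries, printed in the cell and coloured by its log2; grey marks genes with under 50 UMIs in the class. Nr4a1, Fos and Junb are bluest in B cell-like cells, at 0.27, 0.48 and 0.55. Egr1 is bluest in NK cell-like cells at 0.35, and Jun is reddest in plasmacytoid dendritic-like cells at 2.24.

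The ratio in B cell-like cells was then set over that in each other class, so that a shift common to a whole library cancels. Over NK cell-like cells the summed B cell-like ratio was 0.850 (0.771 to 0.939), and 0.958 (0.862 to 1.06) with cells kept only up to 5% mitochondrial UMIs. Over all cells outside the B cell-like and plasma cell-like classes, whose makeup differed between the libraries, it was 0.651 (0.602 to 0.703). It was 0.638 (0.583 to 0.697) over mast cell- or basophil-like cells, 0.560 (0.497 to 0.631) over macrophage- or monocyte-like cells and 0.518 (0.440 to 0.611) over T cell-like cells. Against NK cell-like cells Fos was at 0.663 (0.459 to 0.958), Junb at 0.759 (0.655 to 0.880) and Nr4a1 at 0.396 (0.175 to 0.853), while Ier2 was at 1.16 (0.917 to 1.46), Jun at 0.879 (0.667 to 1.16) and Egr1 at 3.20 (1.66 to 6.17).

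Within the clusters the gap to NK cell-like cells was not detectable at this depth for the summed level, Fos or Junb. The summed ratio of the Fcer2a cluster over that of NK cell-like cells was 1.04 (0.921 to 1.17), and that of the Fcrl5 cluster 1.11 (0.965 to 1.28). Fos gave 0.825 (0.554 to 1.23) and 1.06 (0.666 to 1.69) and Junb 0.947 (0.792 to 1.13) and 0.988 (0.798 to 1.22), in the same order. Ier2 in the Fcer2a cluster, at 1.63 (1.24 to 2.16), and Jun in the Fcrl5 cluster, at 1.79 (1.17 to 2.79), lay above the NK ratio. Over all cells outside the B cell-like and plasma cell-like classes, the clusters stayed lower for the summed level, at 0.793 (0.716 to 0.877) and 0.850 (0.749 to 0.966). Junb was lower too, at 0.703 (0.602 to 0.820) and 0.734 (0.604 to 0.893), and Fos not detectably, at 0.947 (0.735 to 1.21) and 1.22 (0.865 to 1.73). Of the outside cells' UMIs of the 10 genes, mast cell- or basophil-like cells held 2866 of 7214 in the knockout and 2601 of 8982 in the control library. They were 45 knockout and 34 control cells. The outside ratio therefore also carries this makeup, whose part was not tested.

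Co-detection was compared after each cell had been thinned to 1500 UMIs, which left out 10 knockout and 4 control B cell-like cells. Of B cell-like cells, 14.7% in the knockout (10.7 to 19.6%) and 26.8% in the control library (21.1 to 33.1%) had a UMI of 3 or more of the 10 genes, and 31.3% (25.8 to 37.3%) and 14.3% (9.98 to 19.6%) had none. The mean number of genes detected was 1.28 in knockout and 1.82 in control cells. Before thinning, 32.4% of knockout and 58.3% of control cells had 3 or more. Of NK cell-like cells 8.64% in the knockout (5.28 to 13.2%) and 19.6% in the control library (13.3 to 27.2%) had 3 or more, and 27.3% and 23.9% had none, while before thinning 54.7% and 65.2% had 3 or more. Mast cell- or basophil-like cells had 3 or more in 85.7% of 42 knockout and 96.8% of 31 control cells and 5 or more in 50% (34.2 to 65.8%) and 64.5% (45.4 to 80.8%), with overlapping intervals.

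Within the clusters the intervals of these shares overlapped at equal depth. In the Fcer2a cluster 20.9% of knockout (13.7 to 29.7%) and 28.9% of control cells (22.4 to 36.1%) had 3 or more, and in the Fcrl5 cluster 10.32% (6.02 to 16.2%) and 18.2% (8.19 to 32.7%). Before thinning the shares were 39.7% and 58.2% in the Fcer2a cluster and 27.0% and 59.1% in the Fcrl5 cluster, whose control cells were deeper, at medians of 3069 knockout and 5788 control UMIs. For single genes, Fos was seen in 21.9% of knockout (17.1 to 27.4%) and 36.6% of control B cell-like cells (30.3 to 43.3%) and Junb in 46.0% (39.9 to 52.2%) and 64.7% (58.1 to 71.0%). No class was known to lack these genes. After thinning, Egr1 was not seen in plasmacytoid dendritic-like cells, 0 of 35 knockout and 0 of 38 control cells. Before thinning it had 1 UMI in the knockout and 0 in the control library there. For the thinned cells a limit of 3 counts allows shares of cells with a UMI of up to 8.57% and 7.89%. Egr1 was seen in 2.64% of knockout and 3.57% of control B cell-like cells, within that limit, although the plasmacytoid dendritic-like cells were the deeper ones before thinning, at medians of 5312.5 knockout and 7885.5 control UMIs.

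Genes tended to appear in the same B cell-like cells a little more often than their separate shares would give. Fos and Junb were both seen in 13.96% of knockout cells, where the product of their shares was 10.1%, and in 26.3% of control cells, where it was 23.7%. Over the pairs that could be counted, the median of the observed share over that product was 1.38 in 14 knockout pairs and 1.16 in 18 control pairs. Within the Fcer2a cluster it was 1.03 in the knockout and 1.19 in the control library, within the Fcrl5 cluster 1.48 and 1.19, in NK cell-like cells 0.994 and 1.37, and in mast cell- or basophil-like cells 1.08 and 1.03. Pairs share genes and cells, so their spread is no error.

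**Figure D5:**
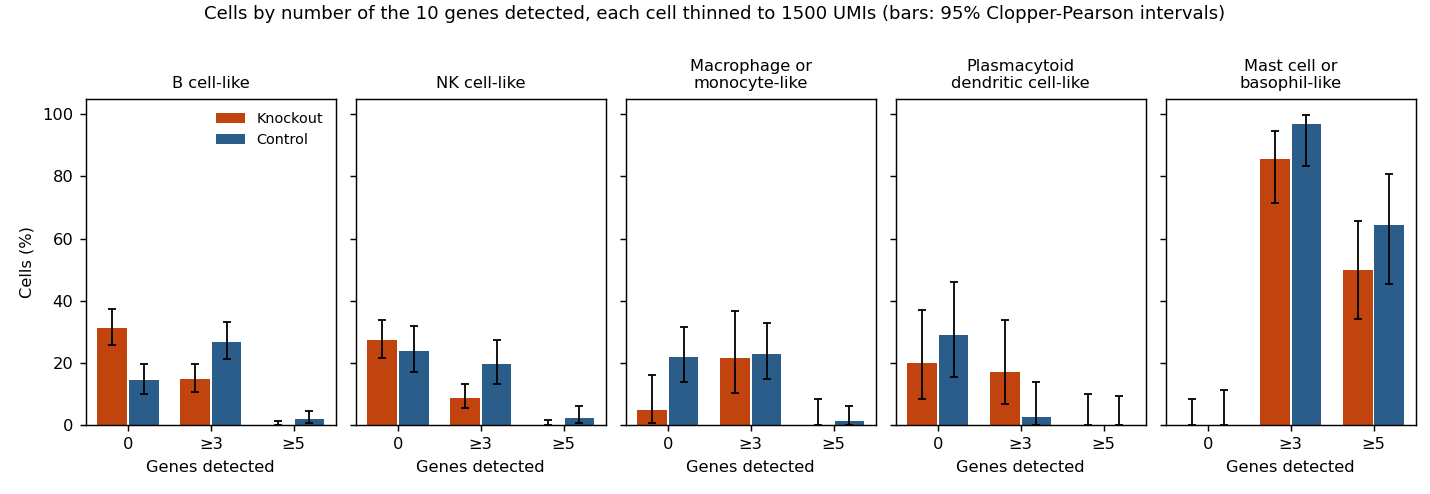
Percent of cells with none, 3 or more, or 5 or more of the 10 genes detected, after thinning to 1500 UMIs, with 95% Clopper-Pearson intervals and knockout left of control. In B cell-like cells the knockout bar is above the control bar for none (31.3% and 14.3%) and below it for 3 or more (14.7% and 26.8%), and mast cell- or basophil-like cells lie above 80% for 3 or more in both libraries.

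The lists of genes that act beside these 10 had median log2 ratios nearer to 0 than the members over all B cell-like cells, where 7.13% of all genes were lower by 1.5-fold, 5.27% higher and 58.1% below a ratio of 1. Of 24 other early response genes 13 could be counted, and 2 were lower by 1.5-fold and 0 higher, with a median log2 ratio of -0.07 and a summed ratio of 0.784 (0.746 to 0.823). Within the Fcer2a cluster their median was -0.44, further from 0 than the members' -0.38, with a summed ratio of 0.793 (0.738 to 0.850), and within the Fcrl5 cluster it was 0.11, with 1.08 (0.996 to 1.17). Over all B cell-like cells Jund, the AP-1 partner with steady expression, had a ratio of 0.683 (0.633 to 0.737). In NK cell-like cells its ratio was 1.08 (0.989 to 1.17). The single-gene ratios here pool both B clusters, whose makeup differed between the libraries, and are not given within each cluster. Also over all B cell-like cells, Btg2, an antiproliferative gene, was at 0.677 (0.558 to 0.820), and Ier5 and the activation marker gene Cd83 were at 1.02 and 1.03. The 2 lower genes over all B cell-like cells were named after their values were seen, as are Dusp5 and Dnaja1. They were Cd69, an early activation receptor gene, at 0.554 (0.432 to 0.708), and Rhob, a small GTPase gene, at 0.650 (0.462 to 0.908). Of 17 feedback inhibitors 8 could be counted over all B cell-like cells, all 8 below 1, with a median of -0.32 and a summed ratio of 0.826 (0.778 to 0.876). The 1 lower by 1.5-fold was Dusp5, at 0.613 (0.355 to 1.04). Zfp36, whose protein destabilises short-lived mRNAs, was at 0.763 (0.688 to 0.846), the phosphatase gene Dusp2 at 0.853, Zfp36l1 at 0.915 and the NF-kappaB inhibitor Nfkbia at 0.924. Within the Fcer2a cluster 4 of 6 feedback inhibitors lay below 1 (55.7% of all genes), with a summed ratio of 0.973 (0.895 to 1.06). In the Fcrl5 cluster 5 of 7 did (56.7% of all genes), with a summed ratio of 0.900 (0.819 to 0.990).

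Heat shock genes encode chaperones, and their direction differed between the B clusters. Of 11, 7 could be counted in B cell-like cells, with 0 lower and 1 higher by 1.5-fold, Dnaja1 at 1.83 (1.45 to 2.32), a median of 0.04 and a summed ratio of 1.18 (1.13 to 1.24). The chaperone genes Hspa8 and Hsp90aa1 were at 1.45 and 1.16, Hsp90ab1 at 1.03 and Hspe1 at 0.852. Their summed ratio was 1.43 (1.32 to 1.55) in the Fcer2a cluster, 0.856 (0.806 to 0.910) in the Fcrl5 cluster and 0.981 (0.952 to 1.01) in NK cell-like cells. Of 16 genes on the way to the early genes 11 could be counted, 1 lower and 1 higher, with a median of 0.01 and a summed ratio of 0.992 (0.908 to 1.08). Nfatc1, a calcium-dependent factor, was the higher one at 3.49 (2.48 to 5.01), from 161 knockout and 43 control UMIs. Nfkb1 was at 0.635 (0.473 to 0.849), Mef2c, a MADS-box factor gene like Srf, at 0.746 and Nfatc3 at 0.805. The single-gene ratios of these lists also pool both B clusters, whose makeup differed between the libraries.

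Markers of other cell types were also counted in the B cell-like cells, whose cluster makeup differed between the libraries. The mast cell or basophil list had 5 UMIs from 3 of 10 markers in the knockout and 2 UMIs from 1 of 10 in the control library (5.32 and 2.28 CPM), against 7873 CPM in the class itself, with Cpa3, Gata2, Fcer1a, Ms4a2, Cd200r3, Il4 and Prss34 at 0 in both. The NK list had 84.1 CPM from 10 of 11 markers in the knockout and 22.8 CPM from 4 of 11 in the control library, the plasma cell list 1317 and 885 CPM from 8 of 9 in each, and the macrophage list 1251 CPM from 7 of 13 and 808 CPM from 4 of 13. Klrb1c of the NK list and C1qa, C1qc, Csf1r, Ms4a7, Fcgr1 and Ccr2 of the macrophage list were at 0 in both libraries. Within the Fcer2a cluster the plasma cell list had 681 CPM in the knockout and 691 CPM in the control library, the macrophage list 370.1 and 268 CPM and the NK list 65.7 and 3.60 CPM. Within the Fcrl5 cluster the plasma cell list had 1599 CPM in the knockout and 1221 CPM in the control library, the macrophage list 1642 and 1746 CPM and the NK list 92.3 and 56.2 CPM. Their part in the ratios was not tested.

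Heavy-chain contigs gave a further division of the B cell-like cells. Cells with an IGHM or IGHD contig, 234 in the knockout and 68 in the control library, had summed levels of 1529 and 2043 CPM, a ratio of 0.748 (0.676 to 0.828). Cells with no heavy-chain contig, 16 in the knockout and 145 in the control library, had 1133 and 2493 CPM, a ratio of 0.454 (0.348 to 0.583). Contigs were thus found for far fewer control cells, and what the missing ones would be was not tested. Cells with a class-switched contig numbered 25 and 3, and had 788 and 819 CPM.

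Across 21 sums of a class and library with at least 20 cells, the genes most like the 10 in their mean log2 level were Hdc, the histamine-forming enzyme gene (Pearson r 0.912), Phf20l1 (0.897), Mpc2, a mitochondrial pyruvate carrier gene (0.882), Osm, the cytokine oncostatin M (0.859), and Ccl3, a chemokine gene (0.854), among 3277 genes with at least 500 UMIs. Hdc is also on the mast cell or basophil marker list. Without the mast cell- or basophil-like sums another set led, Stk10 (0.779), Stk38, Camk2d, Fam32a and Irf2, over 19 sums. Among the members, over all 21 sums, Ier2 (0.942), Junb (0.908) and Egr1 (0.843) followed the mean of the other members most closely. Nr4a2 (-0.380) and Nr4a3 (-0.305) ran against it. These member values include the mast cell- or basophil-like sums and are not given without them. The sums share 2 libraries and the clustering, so these values only describe.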

How the data were processed

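UMI counts, a value for each gene in each barcode, were deposited by the authors as matrices. Their headers name Cell Ranger 6.0.0, and the submitters' processing notes name GRCm38 (mm10). The deposited V(D)J tables give contigs with UMI counts. The members and gene lists were chosen with earlier results of these data known. Barcodes were removed below 200 genes or above 10% mitochondrial UMIs (23 knockout, 11 control), as were Scrublet doublets (5 knockout, 1 control; Scanpy 1.11.5) and barcodes with 2 heavy chains (6 knockout, 0 control). Cells of both libraries were clustered without batch correction (2000 variable genes, 30 components, 15 neighbours, Leiden resolution 1), leaving out immunoglobulin, early response, feedback and heat shock genes. A cluster took a marker list's name at a mean log2 difference of at least 1, with 3 markers in 10% or more of its cells and 1 among its leading 25 genes, unless another list had more there. UMIs were summed per class and library. A ratio carries an exact conditional binomial interval, a CPM an exact Poisson and a share a Clopper-Pearson interval (95%). A gene counted with at least 50 UMIs in classes of at least 20 cells per library, and was called past 1.5-fold. A count of 0 allows 3 counts. Methods were tested on simulated data. Alternatives included edgeR 4.0.16 TMM factors. The genes named are the members, the 4 genes with the most UMIs in B cell-like cells per further list, and the 5 most like the members by Pearson r on log2 of CPM plus 10.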

Additional observations from a re-analysis of the deposited data

Results flagged for a closer look

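Fos was past 1.5-fold in opposite directions in different classes of the same libraries, and the difference between the classes was not tested. Its knockout over control ratio was 0.481 in B cell-like cells and 0.662 in mast cell- or basophil-like cells, but 2.35 in gamma delta T17-like cells and 1.69 in cycling cells. The cycling value has an interval that includes 1 (0.965 to 3.01), and the gamma delta T17 value rests on 36 knockout and 21 control UMIs, of which 14 and 6 lie in 1 cell each.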

How the results depend on the processing

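No paired analysis was possible because each genotype is 1 library. The summed B cell-like ratio stayed below 1 in all 19 alternatives, from 0.572 to 0.785. It left its main interval within the Fcer2a cluster (0.732) and the Fcrl5 cluster (0.785), at the control makeup (0.744) and, in an alternative chosen after seeing the data, in cells with an IGHM or IGHD contig (0.748). The B cell-like median log2 ratio lay between -0.86 and -0.36. The summed NK cell-like ratio, 0.641 to 0.805, moved with clustering on the early genes (0.805), Leiden resolution 0.5 (0.660), marker gates (0.789), at most 5% mitochondrial UMIs (0.645), equal weight per cell (0.641) and thinning to 1500 UMIs (0.649). Its median moved to -0.28, -0.67, -0.69, -0.62 and -0.64 under these but the gates. The B over NK ratio was 0.762 with early genes and 0.958 at 5% mitochondrial UMIs, where its interval includes 1. T cell-like cells had 0.956 with early genes, 0.99994 with no barcode filter and 1.4 thinned to 1500 UMIs. Gamma delta T17-like cells had 1.43 with early genes, with no barcode filter and at 5% mitochondrial UMIs, and 0.937 thinned to 1000 UMIs, so neither class kept its side of 1. Macrophage- or monocyte-like cells had 1.18 at 5% mitochondrial UMIs and 1.35 thinned to 1000 UMIs, and 0.993 by marker gates, the 1 of 15 alternatives below 1. Plasmacytoid dendritic-like cells had 1.46 by gates and 2.17 and 2.36 thinned to 1500 and 1000 UMIs. Without thinning, 3 or more genes were detected in 32.4% of knockout and 58.3% of control B cell-like cells and in 54.7% and 65.2% of NK cell-like cells. The cause was not tested. For single genes and the medians of the classes other than B cell-like and NK cell-like, 596 of 638 alternative values stayed in the main interval. Among these 0 called values changed sign. Depth limits Egr2, Fosb, Nr4a2 and Nr4a3, which had under 50 UMIs in B cell-like cells.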
